A study of Homo sapiens with 6 samples.

Results

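A set of 9 genes that carry the type I interferon signal from the cell surface to the nucleus, or switch it off, were examined in T24 cells after knockdown of TRIM28. The set holds the receptor chains IFNAR1 and IFNAR2, the receptor kinases JAK1 and TYK2, the transcription factors STAT2, IRF9 and IRF1, and the feedback inhibitors SOCS1 and SOCS3. They were chosen by symbol, as 9 of the 78932 genes in the deposited count table. The set was proposed with earlier results of these data known, although the rule itself uses only the symbols. T24 is an established human cell line from a urothelial (bladder) carcinoma. Poly(A) RNA was sequenced from 3 libraries of cells transfected with a non-targeting control siRNA (siNC) and 3 of cells transfected with siRNA against TRIM28 (siTRIM28). The same reagent for nucleic acid transfection was used in both groups, the labels give a single batch, and they call the replicates biological. The labels name no interferon treatment, do not say which TRIM28 siRNA was used, and give no time after transfection. All libraries come from 1 cell line, so the spread between replicates covers cultures of T24 only.

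Type I interferons bind a receptor made of IFNAR1 and IFNAR2. IFNAR1 is held by the kinase TYK2 and IFNAR2 by JAK1, and ligand binding lets the kinases phosphorylate STAT proteins, STAT2 among them. STAT2 and IRF9 are components of the complex ISGF3, which binds the interferon-stimulated response element in the promoters of antiviral genes. IRF1 is a transcription factor induced by interferons and reads a related element. SOCS1 and SOCS3 are made in response to STAT activity and block JAK kinases, SOCS1 mainly downstream of interferon receptors and SOCS3 mainly downstream of gp130, the shared receptor chain of the interleukin-6 family. TRIM28 (KAP1) is a co-repressor that KRAB zinc finger proteins bring to DNA, with retroelements among its best known targets, and its loss has been tied to interferon responses in other cells. Transcript levels report neither phosphorylation nor protein amount.

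The promoters of 4 of these genes are shown because they hold one of the DNA elements of the pathway or, for STAT2, because its transcript gave the largest difference among the tested members. Each is a window of 300 bases, from 250 bases before the RefSeq transcription start to 50 after it, on GRCh38.p14, written 5′ to 3′ along the gene's strand. Capitals mark a match to TTCNNNGAA, the gamma-activated site bound by STAT dimers, in IRF1 and IRF9, and to the core of the interferon-stimulated response element in SOCS1. Both strands were searched, and STAT2 holds neither match.
IRF1: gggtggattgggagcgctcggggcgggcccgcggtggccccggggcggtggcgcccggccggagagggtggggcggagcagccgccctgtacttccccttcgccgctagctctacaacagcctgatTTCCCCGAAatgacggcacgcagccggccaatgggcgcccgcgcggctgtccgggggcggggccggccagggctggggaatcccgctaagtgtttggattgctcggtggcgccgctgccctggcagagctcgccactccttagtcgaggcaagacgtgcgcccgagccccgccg
STAT2: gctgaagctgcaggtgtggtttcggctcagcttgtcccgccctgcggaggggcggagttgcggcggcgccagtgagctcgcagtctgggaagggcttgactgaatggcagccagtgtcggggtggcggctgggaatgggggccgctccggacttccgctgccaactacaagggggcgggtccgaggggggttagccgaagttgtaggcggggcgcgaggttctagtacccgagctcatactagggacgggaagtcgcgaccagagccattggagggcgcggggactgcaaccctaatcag
IRF9: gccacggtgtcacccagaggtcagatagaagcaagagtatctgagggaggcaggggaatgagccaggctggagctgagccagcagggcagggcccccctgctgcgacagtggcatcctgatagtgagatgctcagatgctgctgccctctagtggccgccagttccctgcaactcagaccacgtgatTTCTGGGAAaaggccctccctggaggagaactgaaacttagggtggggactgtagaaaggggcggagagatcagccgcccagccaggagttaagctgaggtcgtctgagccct
SOCS1: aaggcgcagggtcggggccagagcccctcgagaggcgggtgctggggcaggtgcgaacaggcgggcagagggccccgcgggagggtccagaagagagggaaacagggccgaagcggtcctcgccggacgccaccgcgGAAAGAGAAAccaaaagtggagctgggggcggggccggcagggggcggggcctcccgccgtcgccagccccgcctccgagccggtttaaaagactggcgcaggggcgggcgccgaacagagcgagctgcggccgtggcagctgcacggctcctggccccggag

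These windows lie at chr5:132490724-132491023 (minus strand) for IRF1, chr12:56360058-56360357 (minus strand) for STAT2, chr14:24161015-24161314 (plus strand) for IRF9 and chr16:11256155-11256454 (minus strand) for SOCS1. Counted from the transcription start, the gamma-activated site spans bases -124 to -116 in IRF1 and -63 to -55 in IRF9. This motif is a palindrome, so each match is found on both strands. The response element of SOCS1 spans bases -113 to -104 and reads on the opposite strand. RefSeq windows were at hand for 8 of the 9 genes, 12 windows in all. Of these 12, 1 held the response element core and 2 held TTCNNNGAA. Among 35116 windows of the same length over all genes, 1255 (3.57%) held the response element core and 2689 (7.66%) held TTCNNNGAA. The windows of JAK1, TYK2, IFNAR1 and SOCS3 held neither. Windows follow RefSeq starts, and those of SOCS3, JAK1 and IRF1 do not cover the 5′ end listed for the gene with the counts. The sequence at those ends was not searched. A match is a description of the letters, and elements outside a window were not searched.

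Total counts lay between 12989362 and 13942383 in siNC and between 11712623 and 14018052 in siTRIM28. At this depth 3 counts correspond to 0.214 to 0.253 CPM (counts scaled by the TMM-adjusted total of tested genes). TRIM28 itself (chromosome 19, 58544064 to 58550649) had 1419, 1393 and 1382 counts in siNC and 130, 96 and 109 in siTRIM28, a log2 fold change of -3.54 with a standard error of 0.0723, so the knockdown label held in every library. Replicates 1 and 2 of siNC and replicates 2 and 3 of siTRIM28 were closer to each other than to the remaining replicate of their group, with a chi-square per degree of freedom of 1.08 and 1.22 against 4.17 to 6.25 for the other pairs within a group. The close pairs differed slightly beyond sampling noise, which covers counting error only and does not show that they came from separate cultures. All 6 libraries were kept as the labels number them, and each close pair was also summed as an alternative. The keratins KRT8 and KRT18 stood at 104 and 86.1 CPM in siNC, whereas 6 of 10 epithelial and urothelial markers, among them GATA3, EPCAM and UPK2, did not reach the count minimum, so most defining urothelial markers were near absent from these cells. KRT8, KRT7 and UPK1A rose in siTRIM28, by 0.14, 0.56 and 1.94 on the log2 scale by edgeR, where DESeq2 called 1 marker of this list. Among the untested markers, the mean CPM was lower in siTRIM28 for GATA3 (0.585 to 0.249), EPCAM (0.397 to 0.217) and KRT19 (0.337 to 0.147). UPK2 was level (0.269 and 0.273). These values rest on few counts. No marker of immune, endothelial or fibroblast cells among 12 reached the minimum, 3 of them (CD3E, NKG7 and CDH5) had no count at all, and their summed level was 0.650 to 0.941 CPM in siNC and 1.00 to 1.52 CPM in siTRIM28. Within this sum PECAM1 alone went from 0.373 to 0.801 CPM on average, whereas PTPRC went from 0.153 to 0.0520 CPM. The part of these shifts in the results below was not tested. In bulk RNA, fewer cells that express a gene and less RNA of it per cell cannot be told apart.

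The members spanned a wide range of transcript levels (the plot of RPKM by gene). RPKM here is CPM per kilobase of the deposited gene length, so the order and percentages below depend on those lengths in both groups. The lengths run from 1788 bases for SOCS1 to 15676 bases for IFNAR1. Whether they match the transcripts made in T24 was not tested. In CPM, SOCS3 lay below IRF9, IFNAR1 and IFNAR2 in every siNC library. Its place next to JAK1 in RPKM thus rests on its shorter length of 2734 bases. In siNC, JAK1 was the highest of the 9 genes at 8.36 ± 0.239 RPKM (SD, n = 3, as for all values below), above 75.1% of the genes tested. SOCS3 came next with 6.37 ± 0.407 RPKM, followed by IRF9 with 3.40 ± 0.118 RPKM. IFNAR1, TYK2 and IFNAR2 formed a group at 1.52 ± 0.0795, 1.44 ± 0.0879 and 1.44 ± 0.0647 RPKM, and neighbours within this group overlapped in their single libraries. STAT2 at 1.15 ± 0.113 RPKM and IRF1 at 0.693 ± 0.0981 RPKM lay below them. SOCS1 was the lowest at 0.234 ± 0.0428 RPKM, above only 6.05% of the genes tested. The DNA-binding partner IRF9 was thus listed at a higher level than STAT2, and the kinase JAK1 at a higher level than TYK2, in every siNC library.

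**Figure D1:**
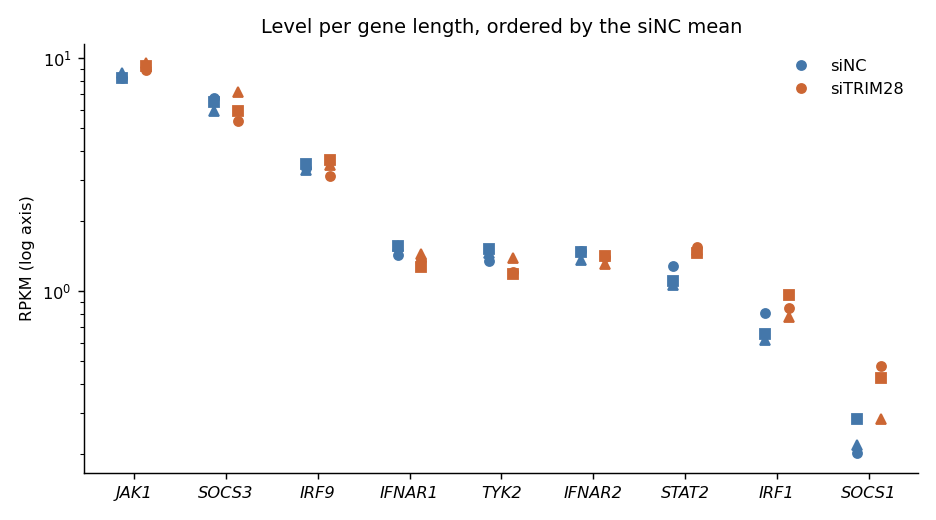
Level of each of the 9 genes in RPKM (log axis) in the 3 siNC and 3 siTRIM28 libraries, 1 point per library, ordered by the siNC mean. JAK1 and SOCS3 lie at the top and SOCS1 at the bottom in both groups, and STAT2 is the gene whose place in the order moves most.

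In siTRIM28 the order was the same at both ends, with JAK1 at 9.20 ± 0.291 RPKM, SOCS3 at 6.15 ± 0.926 RPKM and IRF9 at 3.41 ± 0.270 RPKM on top. IRF1 at 0.864 ± 0.0937 RPKM and SOCS1 at 0.396 ± 0.101 RPKM again closed it. STAT2, at 1.51 ± 0.0445 RPKM, took rank 4 in place of rank 7, above IFNAR2 (1.37 ± 0.0555 RPKM), IFNAR1 (1.36 ± 0.0866 RPKM) and TYK2 (1.26 ± 0.110 RPKM). Of these, IFNAR2 and IFNAR1 as well as IFNAR1 and TYK2 were neighbours whose libraries overlapped. The deposited length of IRF9, 6471 bases, exceeds the 5332 bases between its listed start and end, as is the case for 565 genes of the table, so the RPKM of IRF9 rests on a length that its coordinates do not explain.

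Differences between siTRIM28 and siNC were small for these genes. Of the 8 that reached the count minimum, 2 rose (STAT2 and JAK1), 0 fell, and 6 did not pass edgeR's quasi-likelihood test at an adjusted p of 0.05. That is 25% of the tested members, in an experiment in which 41.8% of the 18474 tested genes passed (21.3% higher and 20.5% lower in siTRIM28). At an unadjusted p under 0.05, 3 members were higher (STAT2, JAK1 and IRF1) and 1 was lower (IFNAR1). DESeq2 called 1 higher and 0 lower, and limma-voom 2 higher and 0 lower. None of the 8 also passed a log2 fold change of 0.58 in size, which 17.0% of all tested genes did. Their log2 fold changes ran from -0.19 to 0.39 with a median of -0.03, beside a median of 0.02 over all tested genes. The median size of the change, regardless of sign, was 0.15 for the members and 0.27 over all tested genes. Libraries of the groups did not overlap for 2 of the 8 members, against 52.0% of all tested genes.

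**Figure D2:**
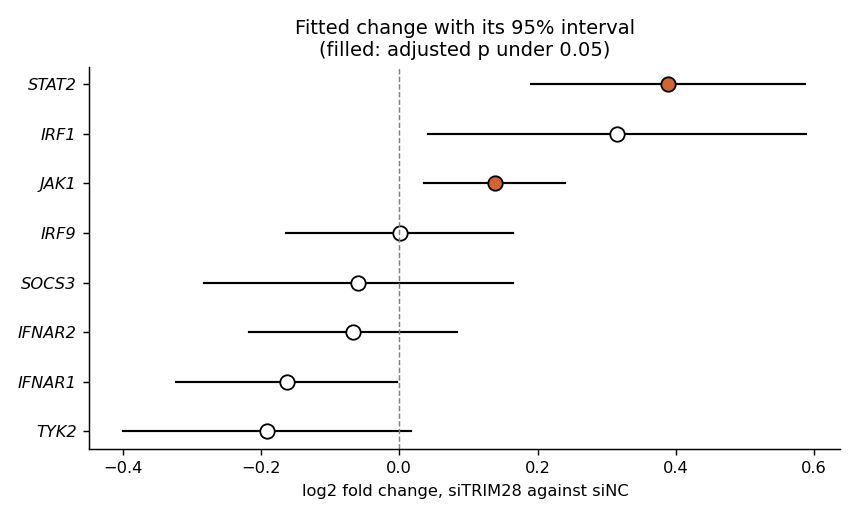
Log2 fold change of siTRIM28 against siNC for the 8 tested genes (horizontal bars, 95% interval from edgeR), filled where the adjusted p is under 0.05. STAT2 (0.39) and JAK1 (0.14) are filled, and the intervals of IFNAR2, TYK2, IRF9 and SOCS3 include 0.

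The receptor chains were detected at similar levels in both groups. IFNAR1 (ENSG00000142166, chromosome 21, 33324387 to 33359264, plus strand) is the chain that docks TYK2. It stood at 22.4, 24.6 and 24.5 CPM in siNC and at 21.4, 19.8 and 22.5 CPM in siTRIM28. The highest siTRIM28 library overlapped the lowest siNC library by a narrow margin. The log2 fold change was -0.16 (standard error 0.0732, 95% interval -0.32 to -0.0026) with an adjusted p of 0.0956 from edgeR, which did not pass. IFNAR2 (ENSG00000159110, chromosome 21, 33205282 to 33262855, plus strand) is the chain that docks JAK1 and holds the ligand most tightly. It stood at 20.5, 20.4 and 18.9 CPM in siNC and 19.4, 19.6 and 18.2 CPM in siTRIM28, so that the groups were interleaved. Its log2 fold change of -0.07 (standard error 0.0686, 95% interval -0.22 to 0.08) had an adjusted p of 0.486 from edgeR. IFNAR2 shares 32964 bases with the read-through gene IFNAR2-IL10RB on the same strand, which had 248 counts per library on average and an adjusted p of 0.278, and how the counting divided reads between them is not given in the sources used here.

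**Figure D3:**
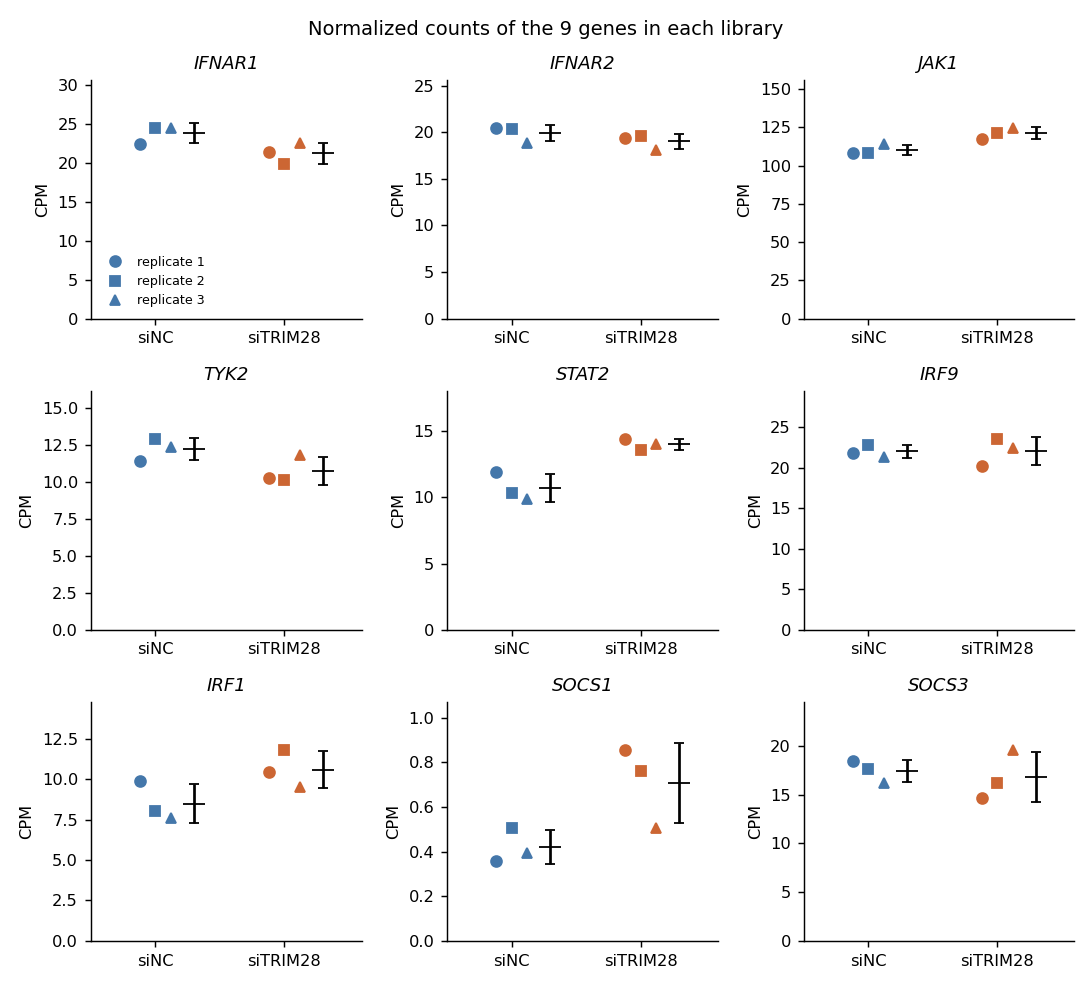
CPM of each of the 9 genes in every library (circles, squares and triangles are replicates 1, 2 and 3), with the mean ± SD of each group in black and each axis starting at 0. STAT2 and JAK1 are the tested genes in which all 3 siTRIM28 libraries lie above all 3 siNC libraries.

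The kinases differed in the sign of their change, and JAK1 was the one that passed the test. JAK1 (ENSG00000162434, chromosome 1, 64833223 to 65067614, minus strand), the kinase used by all interferon receptors and by gp130, stood at 108, 108 and 114 CPM in siNC. In siTRIM28 it stood at 117, 122 and 125 CPM, each above every siNC library. It rose by 10.0%, or 0.14 on the log2 scale (standard error 0.0464, 95% interval 0.04 to 0.24) with an adjusted p of 0.0323 from edgeR. A larger change in size was seen in 72.2% of all tested genes. This call was not made by all fits. DESeq2 gave an adjusted p of 0.153, the fit with no count minimum 0.124, summing the close pairs of libraries gave 0.23, and leaving out siNC replicate 1 or 2 or siTRIM28 replicate 2 or 3 gave 0.157, 0.132, 0.10 and 0.151. TYK2 (ENSG00000105397, chromosome 19, 10350528 to 10380565, minus strand) stood at 11.4, 12.9 and 12.4 CPM in siNC and at 10.3, 10.1 and 11.8 CPM in siTRIM28. One siTRIM28 library lay inside the siNC range. Its log2 fold change was -0.19 (standard error 0.0948, 95% interval -0.40 to 0.02), and the adjusted p from edgeR was 0.129.

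Of the ISGF3 components STAT2 and IRF9, STAT2 passed the test and IRF9 did not, and the difference between them is taken up with the pair ratios. STAT2 (ENSG00000170581, chromosome 12, 56341597 to 56360131, minus strand), the STAT that is particular to the type I and type III interferon receptors, stood at 11.9, 10.3 and 9.88 CPM in siNC. In siTRIM28 it stood at 14.4, 13.6 and 14.0 CPM, and the lowest of these was above the highest siNC library. It rose 1.31-fold (95% interval 1.14 to 1.50), a log2 fold change of 0.39 with a standard error of 0.0903 and an adjusted p of 0.00461 from edgeR. Across 16 other settings the adjusted p of STAT2 ran from 0.00205 to 0.0321, so it was called in each of them at 0.05, and with any 1 library left out the log2 fold change lay between 0.33 and 0.46. A larger change in size was seen in 35.2% of all tested genes. The genes that overlap STAT2 held at most 6 counts in any library.

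IRF9 (ENSG00000213928, chromosome 14, 24161234 to 24166565, plus strand) gives ISGF3 its DNA specificity. It stood at 21.8, 22.8 and 21.3 CPM in siNC and at 20.1, 23.6 and 22.5 CPM in siTRIM28. The siTRIM28 libraries held both the lowest and the highest of the 6 values. The log2 fold change was 0.00 (standard error 0.0748, 95% interval -0.16 to 0.16), with an adjusted p of 0.995 from edgeR, and its sign changed with the scaling and the tool. Of the 5332 bases of IRF9, 5219 are shared with ENSG00000259529 on the same strand. That gene had 525.5 counts per library on average and fell by 0.25 on the log2 scale with an adjusted p of 0.0113 from edgeR. The value of IRF9 is uncertain to the extent that the counting split reads between these genes, which was not tested.

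IRF1 (ENSG00000125347, chromosome 5, 132440440 to 132508719, minus strand) carries the gamma-activated site printed above. It stood at 9.86, 8.02 and 7.61 CPM in siNC and at 10.4, 11.8 and 9.54 CPM in siTRIM28. Replicate 1 of siNC lay above replicate 3 of siTRIM28, and the other siNC libraries lay below all of siTRIM28. The log2 fold change of 0.32 (standard error 0.125, 95% interval 0.04 to 0.59) had an adjusted p of 0.0624 from edgeR and did not pass. Over 16 other settings the adjusted p ran from 0.0310 to 0.233. It was under 0.05 without siNC replicate 1 (0.0310), with upper-quartile scaling (0.0427) and with a replicate block (0.0492). It was 0.160 by DESeq2 and 0.188, 0.205 and 0.233 without siNC replicate 2, siNC replicate 3 and siTRIM28 replicate 2. The span of IRF1 lies within ENSG00000283782 on the opposite strand, which had 3227 counts per library on average and fell by 0.22 on the log2 scale with an adjusted p of 0.00135 from edgeR. The opposite-strand gene CARINH also overlaps it and rose by 0.36 with an adjusted p of 0.0421. The libraries were made with a stranded kit, whether the counting used strand is not given, and the part of these genes in the counts of IRF1 was not tested.

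The feedback inhibitors showed no change that passed a test. SOCS3 (ENSG00000184557, chromosome 17, 78356778 to 78360074, minus strand) stood at 18.4, 17.6 and 16.2 CPM in siNC and at 14.6, 16.2 and 19.6 CPM in siTRIM28. The siTRIM28 libraries spread over the whole siNC range and beyond it on both sides. The log2 fold change was -0.06 (standard error 0.102, 95% interval -0.28 to 0.16) with an adjusted p of 0.680 from edgeR, and it became 0.04 without siTRIM28 replicate 1. SOCS1 (ENSG00000185338, chromosome 16, 11254417 to 11256204, minus strand) carries the response element printed above. It had 5, 7 and 5 counts in siNC and 12, 9 and 6 counts in siTRIM28, which overlap, and its highest siNC library (0.506 CPM) was level with its lowest siTRIM28 library (0.507 CPM). It was not tested because only 1 library reached 10 counts. Fitted with no count minimum, its log2 fold change was 0.75 with an adjusted p of 0.362 from edgeR. With a standard error of 0.462 in that fit, a difference of this size in SOCS1 could not be told from 0. SOCS1 lies entirely inside RMI2 on the opposite strand, which had 91.3 counts per library on average. SOCS3-DT, opposite SOCS3, had 117 counts per library on average.

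For the 6 tested members that did not pass, the 95% intervals together reached from -0.40 to 0.59 on the log2 scale, which bounds what these libraries leave room for without showing that the genes were equal in both groups. Single-gene permutation over the libraries cannot go below 0.1 for 3 against 3. By this exact two-sided permutation test, STAT2 and JAK1 had p = 0.1, IFNAR1, TYK2 and IRF1 had p = 0.2, IFNAR2 had p = 0.3, SOCS3 had p = 0.7 and IRF9 had p = 1.0.

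Members that act as partners were also compared within each library, as the log2 ratio of their CPM, which removes the library scaling from the comparison (the plot of ratios by pair). The log2 ratio of IRF9 to STAT2 was 0.87, 1.13 and 1.10 in siNC and 0.48, 0.79 and 0.67 in siTRIM28. CPM is not divided by gene length, so these ratios compare the groups and not the levels of partner genes. The groups did not overlap, and the mean ratio was 1.03 ± 0.144 in siNC and 0.65 ± 0.157 in siTRIM28. The mean difference of -0.39 restates the rise of STAT2 (0.39), as IRF9 differed by 0.00, and is not a separate result. The exact two-sided permutation p of this difference in the ratio was 0.1, the smallest that 3 against 3 allow, and 0.2 after adjustment over 4 pairs. TYK2 lay under JAK1 in every library, with log2 ratios of -3.23, -3.05 and -3.18 in siNC and -3.49, -3.56 and -3.38 in siTRIM28. These groups did not overlap either, with a mean difference of -0.33 (exact permutation p = 0.1, adjusted 0.2). The transcript of TYK2 was lower relative to that of JAK1 in each siTRIM28 library than in any siNC library. This difference combines the changes of TYK2 (-0.19) and JAK1 (0.14) given above and is not a separate result. TYK2 itself was not called, and the protein of either kinase was not measured here.

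The receptor chains kept overlapping ratios. IFNAR2 over IFNAR1 averaged -0.26 ± 0.125 in siNC and -0.16 ± 0.146 in siTRIM28, a difference of 0.10 (exact permutation p = 0.5, adjusted 0.5). SOCS3 over SOCS1 averaged 4.95 ± 0.215 in siNC and 4.31 ± 0.531 in siTRIM28, a difference of -0.63 (exact permutation p = 0.2, adjusted 0.267), and the few counts of SOCS1 limit this ratio. No pair passed after adjustment, nor could it at this group size.

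The other genes of the pathway were examined as lists, each read beside the 41.8% of all genes that passed (the plot of log2 fold changes by list). The ligands could not be compared. Of 21 type I, II and III interferon genes none was tested, 20 had no count in any library, and the remaining one, IFNE, had at most 2 counts in a library. With no interferon transcript above the 3-count floor of 0.214 to 0.253 CPM, ligand expression was not detectable at this depth in either group.

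**Figure D4:**
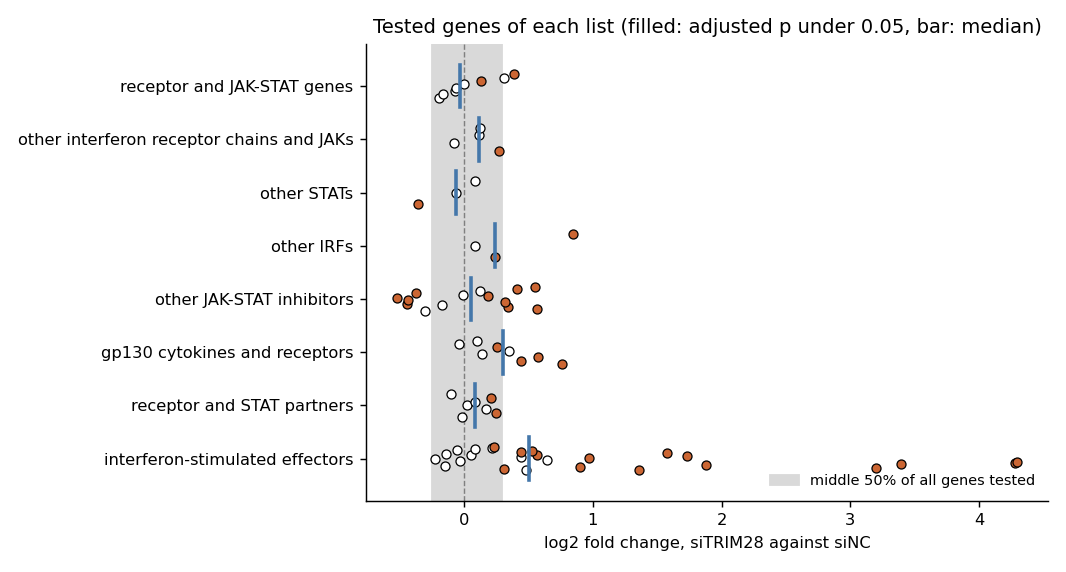
Log2 fold change of every tested gene in each pathway list (points, filled where the edgeR adjusted p is under 0.05), with the list median as a blue bar and the middle 50% of all tested genes (-0.25 to 0.30) in grey. The interferon-stimulated effectors reach 4.29, while the receptor, kinase, STAT and inhibitor genes stay within 0.58 of 0.

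Among the other interferon receptor chains and JAKs, 4 of 6 were tested, 1 rose and 0 fell at an adjusted p of 0.05 (the same counts by DESeq2 and limma-voom, and at an unadjusted p under 0.05), with a median log2 fold change of 0.12. IFNGR1, the ligand-binding chain of the interferon-gamma receptor, stood at 28.6, 26.5 and 24.5 CPM in siNC and at 32.3, 32.5 and 31.4 CPM in siTRIM28. The groups did not overlap, and it rose by 0.27 on the log2 scale (adjusted p = 0.00824, edgeR). Its partner IFNGR2 gave -0.07, IL10RB gave 0.12 and JAK2 gave 0.13, none past the test. IFNLR1, the ligand-binding chain for type III interferons, and JAK3 had at most 2 and 1 counts in any library.

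Of the other STATs, 5 were examined, 3 were tested, 0 rose and 1 fell (the same counts at an unadjusted p under 0.05, by DESeq2 and by limma-voom), with a median of -0.06. STAT3, the main STAT downstream of gp130, stood at 77.2, 69.5 and 77.5 CPM in siNC and at 53.8, 61.4 and 59.8 CPM in siTRIM28. It fell by 0.36 on the log2 scale (adjusted p = 0.00112, edgeR), with every siTRIM28 library under every siNC library. STAT5B gave -0.06 and STAT6, the STAT of interleukin-4 signalling, 0.09, and neither passed. STAT4 and STAT5A had too few counts to be tested.

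Of the other IRFs, 3 of 7 were tested, 2 rose and 0 fell (unadjusted p under 0.05 also 2 and 0, DESeq2 1 and 0, limma-voom 2 and 0), with a median of 0.25. IRF2, which binds the same element as IRF1 and can repress it, went from 35.0 ± 1.16 to 41.5 ± 0.478 CPM and rose by 0.25 on the log2 scale (adjusted p = 0.00530, edgeR). IRF5 went from 0.917 ± 0.0889 to 1.67 ± 0.331 CPM, a difference of 0.84 on the log2 scale with a standard error of 0.268 and an adjusted p of 0.0245 from edgeR, which DESeq2 gave as 0.119. IRF3, the factor activated by viral nucleic acid sensors, gave 0.09 and did not pass. IRF7, itself interferon-induced, had 7, 3 and 2 counts in siNC and 12, 10 and 5 in siTRIM28 and was not tested.

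The other inhibitors of JAK-STAT signalling gave the most calls of the signalling lists. Of 16, 14 were tested, 6 rose and 4 fell (DESeq2 called 3 and 4), with a median of 0.06. PTPN11 (SHP2), a phosphatase with roles in both JAK-STAT and RAS signalling, stood at 345, 353 and 353 CPM in siNC and at 241, 249 and 247 CPM in siTRIM28. It fell by 0.51 on the log2 scale (adjusted p = 8.68e-07, edgeR). PTPN2, a phosphatase of JAK1, fell by 0.43, SOCS7 by 0.44 and PIAS3, an inhibitor of STAT3, by 0.37.

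In the opposite direction, SOCS4 stood at 38.9, 40.0 and 42.3 CPM in siNC and at 59.6, 61.1 and 58.9 CPM in siTRIM28, and rose by 0.57 (adjusted p = 1.30e-05, edgeR). SH2B3 (LNK), an adaptor that restrains JAK2, rose by 0.55 and PTPN1, a phosphatase of JAK2 and TYK2, by 0.32. USP18, which displaces JAK1 from IFNAR2 and is itself interferon-induced, rose by 0.41, SOCS5 by 0.35 and PIAS1 by 0.19, and DESeq2 did not call these last genes (adjusted p 0.0940, 0.105 and 0.0858). Calls in this list thus ran in both directions. SOCS3 was tested and not called, and SOCS1 had too few counts to be tested.

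In the gp130 family, which signals through JAK1 and STAT3 and induces SOCS3, 8 of 11 genes were tested, 4 rose and 0 fell (unadjusted p under 0.05 5 and 0, DESeq2 1 and 0, limma-voom 4 and 0), with a median of 0.31. LIF, a cytokine of this family, stood at 17.5, 18.5 and 21.6 CPM in siNC and at 33.2, 32.4 and 32.0 CPM in siTRIM28. It rose by 0.76 on the log2 scale (standard error 0.0804, adjusted p = 1.63e-05, edgeR), with the groups far apart. The cytokines CLCF1 and IL11 rose by 0.58 and 0.45 and the receptor LIFR by 0.26, and these calls were not made by DESeq2. The shared chain IL6ST (gp130) gave 0.14 with an adjusted p of 0.102, and IL6 itself had at most 1 count in a library. Among 7 proteins that bind, modify or import the receptor and STATs, 7 were tested, 2 rose (CSNK1A1 by 0.25 and EP300 by 0.21) and 0 fell, with 3 and 0 at an unadjusted p under 0.05, 1 and 0 by DESeq2 and 2 and 0 by limma-voom. EP300 was among those DESeq2 did not call.

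Downstream effectors are given for scale. Of 38 interferon-stimulated effector genes, 26 were tested, 15 rose and 0 fell (unadjusted p under 0.05 also 15 and 0, DESeq2 14 and 0, limma-voom 14 and 0), and 10 passed 0.58. Their summed level was 299 to 304 CPM in siNC and 642 to 672 CPM in siTRIM28. The 5 largest rises were those of IFIT3 (4.29), IFIT2 (4.27), IFIT1 (3.39), OASL (3.20) and IFI44 (1.88), all on the log2 scale. IFIT3, a cytoplasmic antiviral protein, stood at 4.03, 3.11 and 3.29 CPM in siNC and at 64.5, 68.8 and 72.3 CPM in siTRIM28. Within the same libraries STAT2 differed by 0.39, IRF9 by 0.00 and the receptor chains by -0.16 and -0.07. Several list genes gave no call, among them IFITM3 (-0.22, adjusted p = 0.105), PARP9 (0.05, adjusted p = 0.626) and PSMB9 (0.22, adjusted p = 0.303, all by edgeR). A further 12, among them MX1, IFI44L, RSAD2 and OAS2, had too few counts in both groups to be tested.

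The genes whose profile over the 6 libraries was most like that of STAT2 were TUBGCP6, MTSS1 and ASMTL, at a root-mean-square distance of 0.0271, 0.0384 and 0.0404 in mean-centred log2 CPM, beside a median of 0.256 over 11340 genes. Those most like JAK1 were HSF2, HIPK1 and TAOK1, at 0.0102, 0.0115 and 0.0174, beside a median of 0.177. HSF2, HIPK1 and TAOK1 differed by 0.13, 0.12 and 0.12 on the log2 scale and, unlike JAK1, were not called (adjusted p 0.116, 0.114 and 0.0827, edgeR). Over 6 libraries in 2 groups this distance is small for any gene with a like difference between the groups, and TUBGCP6, MTSS1 and ASMTL differed by 0.41, 0.36 and 0.41 on the log2 scale.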

How the data were processed

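Per the submitters' processing notes, reads were handled with fastp 0.23.1, STAR 2.7.6a and featureCounts on GRCh38. The authors deposited raw read counts per gene, with coordinates and length but no normalization. The annotation release, the strand setting and any removal of duplicates are not given in the sources used here. The deposited values of the authors' selected genes were not used.

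A count minimum of 10 in 3 or more of the 6 libraries left 18474 genes, which were fitted by group after TMM scaling with edgeR's quasi-likelihood test (edgeR 4.0.16, R 4.3.3, no covariate). Their p-values were adjusted together (Benjamini-Hochberg) and called under 0.05. The common biological coefficient of variation was 0.0733. Standard errors were derived from the F statistic. CPM uses TMM-scaled totals of tested genes, and pair ratios a prior count of 2. Total counts were 11712623 to 14018052, and floors of 3 counts cover counting error only. The fit was first tested on simulated data with 200 genes changed. There edgeR recovered 139 of them at a log2 change of 0.8 and 7 at 0.3, so small changes could be missed. Far more genes passed in the deposited libraries, so these shares do not carry over directly.

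All members, TRIM28 and genes overlapping a member were named. From each list, genes past an adjusted p of 0.05 and 0.58 were named, at most 5, and up to 3 members called had their 3 most similar genes (mean of at least 50 counts) named. A gene of the lists is not reported here and was left out of the list counts. Other list genes were named after their values were seen. The members and lists were chosen with earlier results of these data known, among them rises of interferon-stimulated genes, which are not independent support. Alternatives were DESeq2 1.42.0, scaling by RLE, upper quartile or total count, limma-voom 3.58.1, no count minimum, a minimum of 10 in all 6 libraries, a replicate block, omission of each library, close pairs summed, an adjusted p under 0.01 and, for pairs, a prior count of 0.5. Python 3.11.15, pandas 2.3.3, numpy 2.4.6, scipy 1.17.1 and matplotlib 3.10.9 were used.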

Additional observations from a re-analysis of the deposited data

How the results depend on the processing

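STAT2, TRIM28, IFNGR1, STAT3, IRF2, PTPN11, SOCS4 and LIF kept their direction and their call at 0.05 in all 16 settings. The members called fell from 2 to 1 with DESeq2, with no count minimum, with close pairs summed and at an adjusted p under 0.01, and ranged from 1 to 2 with single libraries left out (1 without siNC replicate 2 or siTRIM28 replicate 2 or 3). JAK1 was the call lost in each of these. The other IRFs, the gp130 family and the receptor and STAT partners fell to 1 with DESeq2 and at an adjusted p under 0.01, the IRFs and partners also with close pairs summed. With single libraries left out they ranged from 1 to 2, 1 to 4 and 1 to 3. The IRFs fell to 1 without siNC replicate 1 or 2 or siTRIM28 replicate 2 or 3, the gp130 family without siNC replicate 1 or siTRIM28 replicate 2, and the partners without siNC replicate 1 or 3 or siTRIM28 replicate 2. With upper-quartile scaling the gp130 family had 5 calls and the partners 3. Summed pairs and omitted libraries leave fewer samples, and otherwise the cause was not tested. All genes called numbered 6344 to 8130 with libraries left out and 5393 to 8018 otherwise.

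The direction of IRF9 turned with RLE scaling (-0.0047), DESeq2 (-0.0038), limma-voom (-0.0046), no count minimum (-0.0093) and close pairs summed (-0.013), and ran from -0.058 to 0.066 with libraries left out. SOCS3 ran from -0.19 to 0.037 with libraries left out, turning without siTRIM28 replicate 1. IFNAR1, IFNAR2 and TYK2 were lower in siTRIM28 and not called in any setting (adjusted p from 0.0527, 0.363 and 0.0638 up). Scaling moved the median of all genes from 0.02 to at most 0.05.

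With the replicate number as a block, 7910 genes and 3 members were called, IRF1 (0.31, adjusted p = 0.0492, edgeR) being added, and no other member's call changed. Same-numbered libraries correlated at 0.0658, -0.0242 and 0.0506 in their deviations over 12828 genes, and siNC replicate 2 was closest to siTRIM28 replicate 1 (0.0417), so the numbers were not taken as pairs. None of SOCS1, the interferon ligands, IRF7 and IFNLR1 reached the count minimum. For the ligands, 20 of which had no count in any library, absent expression and too little depth cannot be told apart.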
